A study of Drosophila melanogaster with 3 samples.

Results

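Hybrid male rescue (Hmr) is a chromatin protein of Drosophila melanogaster, and of the 8131 binding summits deposited as reproducible in fly embryos, 349 lay inside an annotated exon and farther than 250 bp from every annotated transcript start. These exonic summits are described here: where in genes they lay, how strong they were in each replicate, and which sequences they carried. Within that list they were chosen by position alone, on the Release 6 gene models (dm6). The list itself holds the strongest entries of the pooled data, so strength decided which summits could be members. The other summits of the list comprised 3288 in introns and 1363 between genes, all farther than 250 bp from a start, and 3131 within 250 bp of a start. Of the exonic summits, 31 lay in coding sequence, 96 in a 5′ untranslated region (UTR), 114 in a 3′ UTR and 108 in an exon of a noncoding transcript.

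The samples formed 1 group of 3 biological replicates. Each was chromatin from mixed sex whole embryos collected between 0 and 24 h, of the transgenic line Hmr-GFP, in which green fluorescent protein is fused to the C-terminal end of Hmr. Chromatin was sonicated to 200 to 800 bp and precipitated with an antibody against the tag. The line carries the fusion from a transgene insertion, so the measured binding is that of the tagged protein. The embryos hold every tissue, so binding in fewer cells and weaker binding per cell cannot be told apart. The lists hold no read counts, and the depth of each library is unknown.

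Hmr is known for the death of hybrid males between Drosophila melanogaster and its close relatives. It works with Lethal hybrid rescue (Lhr) and Heterochromatin Protein 1a, sits near centromeres and telomeres, and binds many sites along chromosome arms, a share of them together with insulator proteins such as BEAF-32. An exon of a gene can serve as a promoter, an enhancer or a boundary for another transcript, and 5′ UTR exons often lie close to alternative starts. Coding exons of flies are richer in G and C than introns.

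The 30 bases centred on the summit are shown for 1 member of each exon class, as examples of their sequence. The summit base is in capitals, and each is read on the strand of its gene in the Release 6 sequence. ph-p, by and lncRNA:Vinr are the strongest of their classes, and Pde1c is the second strongest of the coding class, with 63.2% G + C within 100 bp of its summit against a class median of 52.7%. Pde1c is in the coding class, ph-p in the 5′ UTR class, by in the 3′ UTR class and lncRNA:Vinr in the noncoding class.
Pde1c, chr2L:11816565-11816594, minus strand: gccagctgcggagcCggcagatggcgctgc
ph-p, chrX:2137957-2137986, minus strand: ttgaaacattaataAacttaaaacttaata
by, chr3R:9528629-9528658, minus strand: ctgattcatatttgTttatatgcccaagtt
lncRNA:Vinr, chrX:12751309-12751338, plus strand: tgaaatataaattttGatatatgccaatcc
The next set holds the consensus letters counted further on, in capitals: AGGTGGCGC, a core of the site of the insulator protein CTCF, in the 3 strongest members that have it, each read on the strand that holds the letters.
Pde1c, chr2L:11816529-11816558, plus strand: gctggccgccAGGTGGCGCaattgtcccct
CG10357, chr3L:3616466-3616495, minus strand: ataatagtacaAGGTGGCGCtagtaaaata
lncRNA:CR43838, chrX:20760526-20760555, plus strand: gcgccctcatAGGTGGCGCtttcatgagaa
GAGAGAG, the repeat bound by GAGA factor, is shown in the 3 strongest members with it, all in 5′ UTRs.
CG6785, chr2L:12044770-12044799, plus strand: tggcgtttataGAGAGAGagagagcgagag
amn, chrX:19889510-19889539, minus strand: ttctttcagtgtGAGAGAGggagagagaga
Hsp22, chr3L:9373649-9373678, minus strand: attagagagtggGAGAGAGaaagttttgtg
CAGGTAG, the site of the early embryonic activator Zelda, was in 2 of 349 members (0.573%). It was in 0.787% of all optimal summits and 1.36% of the exonic background. Both members are shown.
CG7872, chrX:15579754-15579783, minus strand: tttgtgaccagcCAGGTAGgggtataattg
CG31729, chr2L:13290382-13290411, minus strand: ttgagcggtaaaCAGGTAGggtaaacacac

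Coding sequence was where Hmr summits were scarcest. Away from starts, coding sequence covers 21.2 Mb and held 31 optimal summits, or 1.46 per Mb, whereas 5′ UTRs held 65.9, noncoding exons 69.6, introns 59.7, intergenic sequence 35.7 and 3′ UTRs 17.9 per Mb. All exon classes together held 11.4 summits per Mb. The 20064 entries of the relaxed pooled list that were not near any optimal summit served as background, and their density was also lowest in coding sequence, at 24.6 per Mb, against 191 per Mb in introns. The contrast between coding sequence and introns was thus present in both sets and was steeper among the optimal summits.

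**Figure D1:**
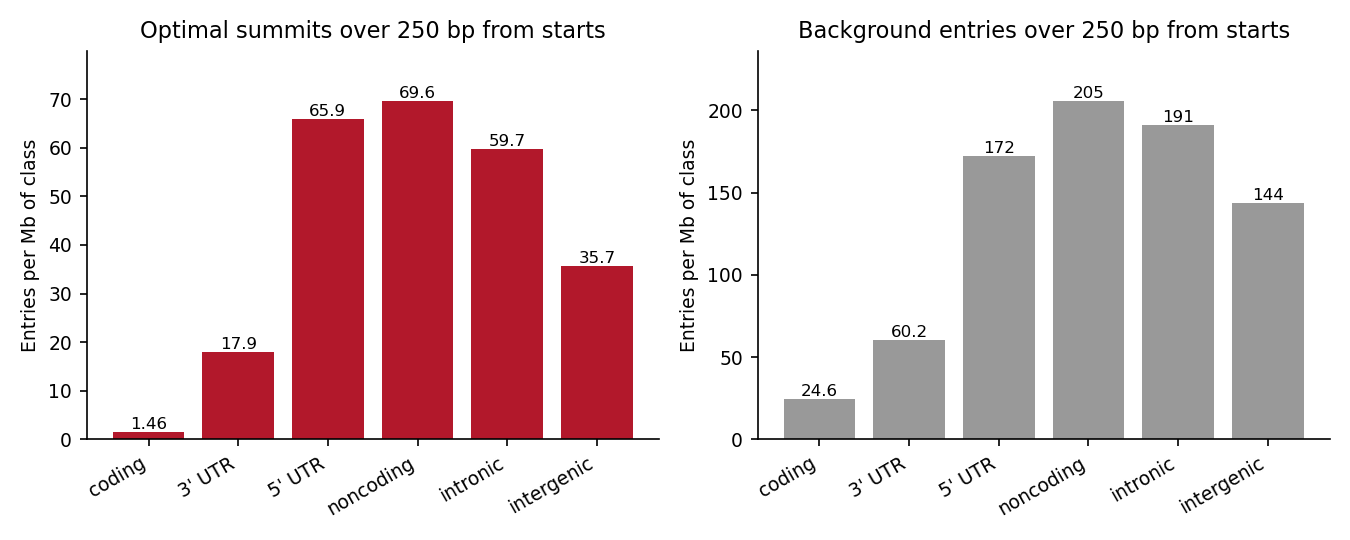
Entries per Mb of each annotated class, counted only farther than 250 bp from every start: optimal summits on the left and background entries of the relaxed pooled list on the right, each bar being 1 count divided by the length of the class. Coding sequence is the lowest bar in both panels, at 1.46 and 24.6 per Mb.

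Among the 5000 optimal summits away from starts, 6.98% were exonic (exact Clopper-Pearson 95% interval 6.29 to 7.72%), against 8.43% (8.02 to 8.85%) of the 17498 background entries away from starts. The intervals do not overlap, and they cover counting error only. The difference lay in coding sequence, with 0.62% (0.422 to 0.879%) of optimal summits against 2.98% (2.74 to 3.25%) of background entries, a ratio of 0.208. The 3 other exon classes together made up 6.36% (5.70 to 7.07%) of optimal summits against 5.45% (5.11 to 5.79%) of background entries. The 5′ UTR share was 1.92% of optimal summits against 1.43% of background entries, the 3′ UTR share 2.28% against 2.19%, and the noncoding share 2.16% against 1.82%. Beyond 1000 bp from every start the exonic difference was −0.469 points and the coding difference −1.56 points, in place of −1.45 and −2.36 points. Against the lower-ranked part of the background they were −2.70 and −3.76 points.

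The coding share changed with strength along the whole relaxed pooled list. Over 10 bins of 3000 entries, from the strongest to the weakest, it was 0.490, 0.585, 0.794, 1.22, 0.976, 1.84, 2.85, 3.63, 4.45 and 5.29% of the entries away from starts. The strongest bin held 8 coding entries and the weakest 145. The share of UTR and noncoding exons stayed between 5.20 and 6.68% in all 10 bins, highest in the third and lowest in the seventh.

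**Figure D2:**
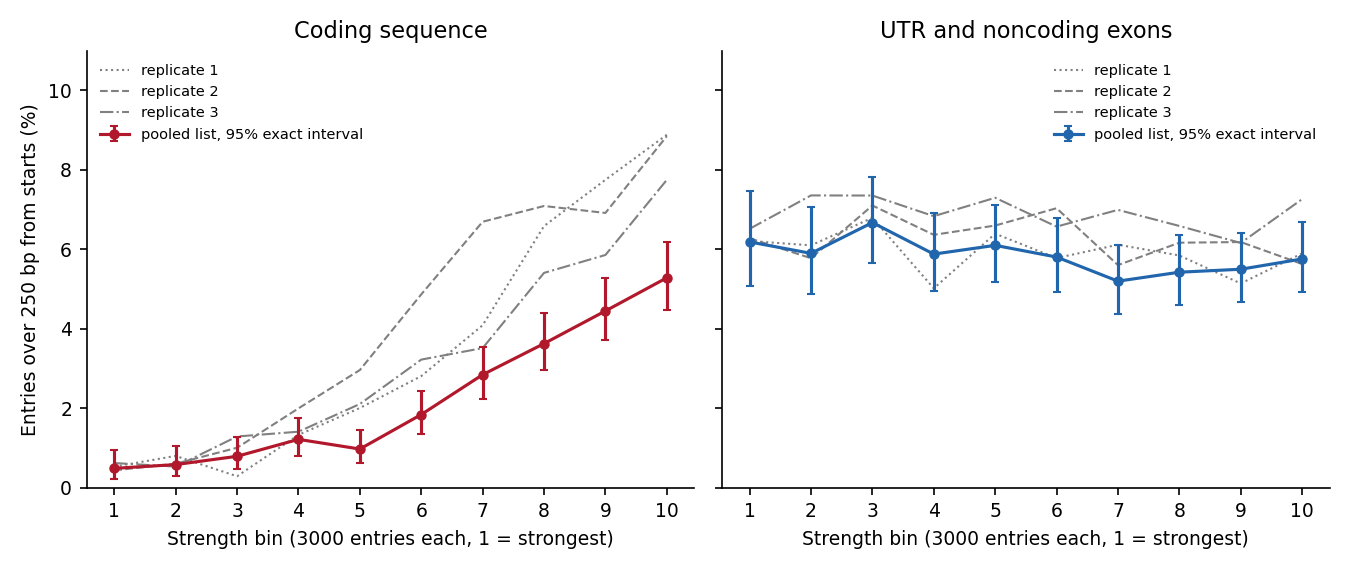
Share of entries farther than 250 bp from starts (percent, y axis) that lay in coding sequence (left) or in UTRs and noncoding exons (right), by bin of 3000 entries from strongest to weakest (x axis), with the pooled list in colour and the 3 replicate lists in grey. The coding share of the pooled list goes up from 0.490% in the first bin to 5.29% in the last, while the other exonic share stays between 5.20 and 6.68%.

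Each replicate list showed the same order. Among the 8131 strongest entries of replicates 1, 2 and 3, the coding share away from starts was 0.582, 0.698 and 0.862%, against 4.78, 5.54 and 4.18% in the rest of each list. The difference averaged −4.12 ± 0.762 percentage points (SD, n = 3, exact two-sided sign-flip permutation p = 0.25, which is the smallest that 3 replicates allow). The share of UTR and noncoding exons was 6.42, 6.32 and 7.01% among the strongest entries, against 5.76, 6.26 and 6.85% in the rest, a difference of 0.291 ± 0.321 points (SD, n = 3, exact p = 0.25). That difference was smaller than its spread, and it became −0.0528 points when the 4000 strongest entries were used in place of 8131.

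Base composition also differed between optimal summits and background. The median G + C content within 100 bp of the summit was 52.7% for coding members and 53.7% for coding background entries. It was 42.0% against 44.8% in 5′ UTRs, 36.3% against 39.3% in 3′ UTRs, and 34.3% against 44.3% in noncoding exons. Intronic optimal summits had 35.8% against 41.3% for intronic background, so that background entries had the higher median in all 5 classes. The smallest gap was in coding sequence, the class with the highest median in both sets. The part of base composition in the low coding share was not tested.

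**Figure D3:**
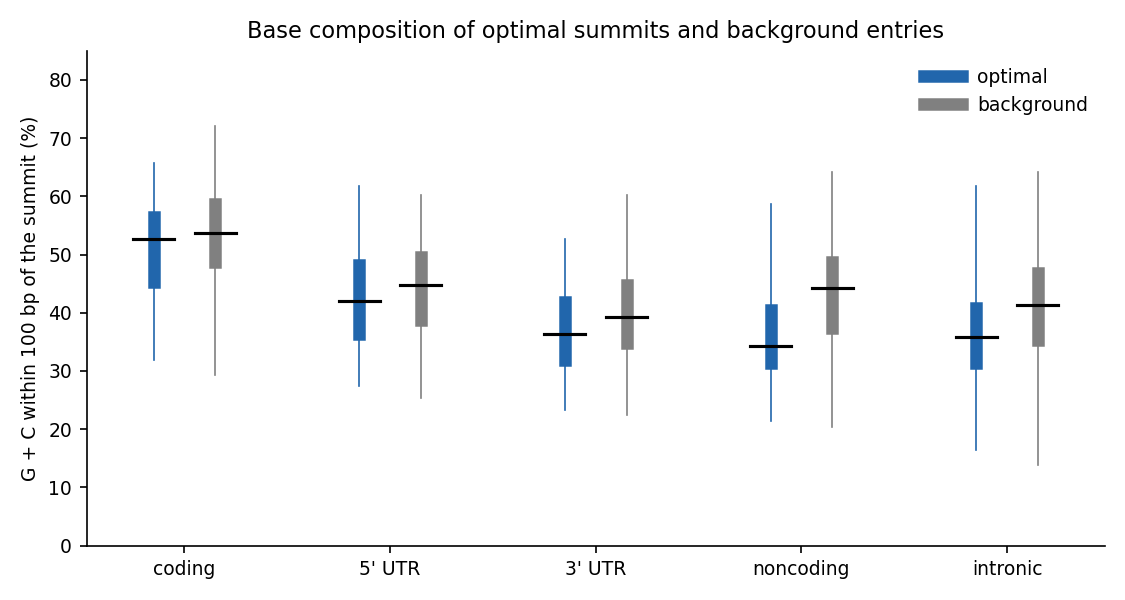
G + C content (percent, y axis) within 100 bp of optimal summits (blue) and of background entries (grey) in the 4 exon classes and in introns. Black bars are medians, thick bars run between quartiles and thin lines between the lowest and highest value. Noncoding members have a median of 34.3% against 44.3% in their background, whereas the coding pair is close, at 52.7% and 53.7%.

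The 4 exon classes took different shares of the members than of the exonic background. Coding members made up 8.88% (6.12 to 12.4%) of the 349, against 35.4% of the 1475 exonic background entries. The 5′ UTR class took 27.5% against 17.0%, the 3′ UTR class 32.7% against 26.0%, and the noncoding class 30.9% against 21.6%. These shares sum to a whole, so the lower coding share raises the others. Among the 318 members outside coding sequence, 30.2% were in 5′ UTRs, 35.8% in 3′ UTRs and 34.0% in noncoding exons, against 26.3, 40.2 and 33.5% of the 953 such background entries. Many positions were exonic in 1 transcript and intronic in another: 124 members, or 35.5%, against 26.0% of the exonic background. The share was 59.4% against 46.2% in 5′ UTRs, 32.3% against 17.0% in coding sequence, 20.2% against 16.7% in 3′ UTRs and 31.5% against 35.7% in noncoding exons, so the noncoding class went the other way.

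By the authors' signal value, used here only within a list, the members were a little weaker than other summits. Their median in the optimal list was 236, with quartiles of 188 and 399 and a range of 155 to 4628, against medians of 261 for intronic, 251 for intergenic and 308 for start summits. The median was 221 in coding sequence, 243 in 5′ UTRs, 219 in 3′ UTRs and 307 in noncoding exons. Of the members, 32 (9.17%) were among the 1000 strongest optimal summits, against 9.98% of the intronic and intergenic summits and 12.3% of all optimal summits, and 4 were among the strongest 100.

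**Figure D4:**
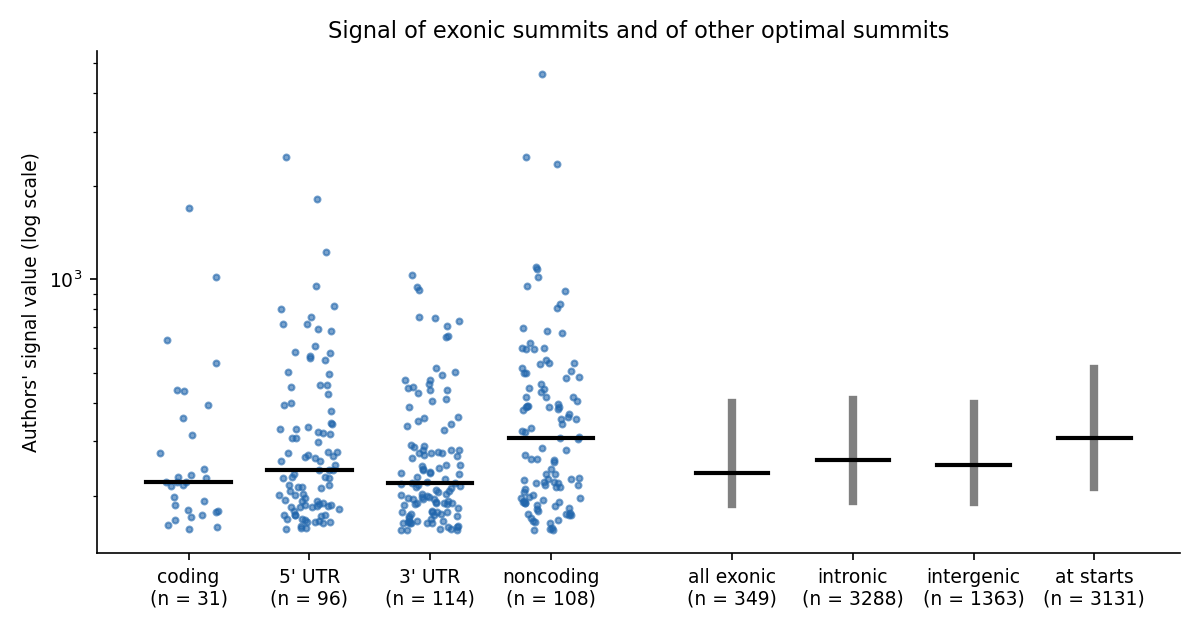
The authors' signal value in the optimal list (log scale, y axis), with 1 point for each exonic member by class and a black bar at the class median. On the right, grey bars run between the quartiles of all exonic members and of the other optimal summits. The noncoding class has the highest median, 307, and the strongest member, 4628.

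Matched to the replicate lists, the members had median rank percentiles of 85.3, 84.5 and 83.6 in replicates 1, 2 and 3, where 100 is the strongest. Intronic summits had 86.2, 85.8 and 83.7, and the difference was −0.758 ± 0.608 points (SD, n = 3, exact sign-flip permutation p = 0.25). Intergenic summits had 86.5, 84.7 and 83.1, and the difference of −0.321 ± 0.849 points did not keep its sign in replicate 3 (exact p = 0.75). Start summits had 88.9, 88.8 and 89.2, above the members in every replicate, with a difference of −4.50 ± 1.01 points (exact p = 0.25).

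Noncoding members stood above the other members in all 3 replicates, with median percentiles of 89.2, 87.9 and 86.5 against 83.2, 84.0 and 82.7, a difference of 4.58 ± 1.19 points (SD, n = 3, exact p = 0.25). Coding members stood below the rest in all 3, at 82.7, 79.6 and 79.6 against 85.5, 85.1 and 84.4, a difference of −4.35 ± 1.36 points (exact p = 0.25). The 3′ UTR class was also lower in all 3, with a difference of −3.45 ± 2.50 points (exact p = 0.25). The 5′ UTR class differed by 0.808 ± 1.54 points with mixed signs (exact p = 1.0). The noncoding, coding and 3′ UTR differences were thus larger than that of all members against intronic summits, and the 5′ UTR difference was about as large.

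**Figure D5:**
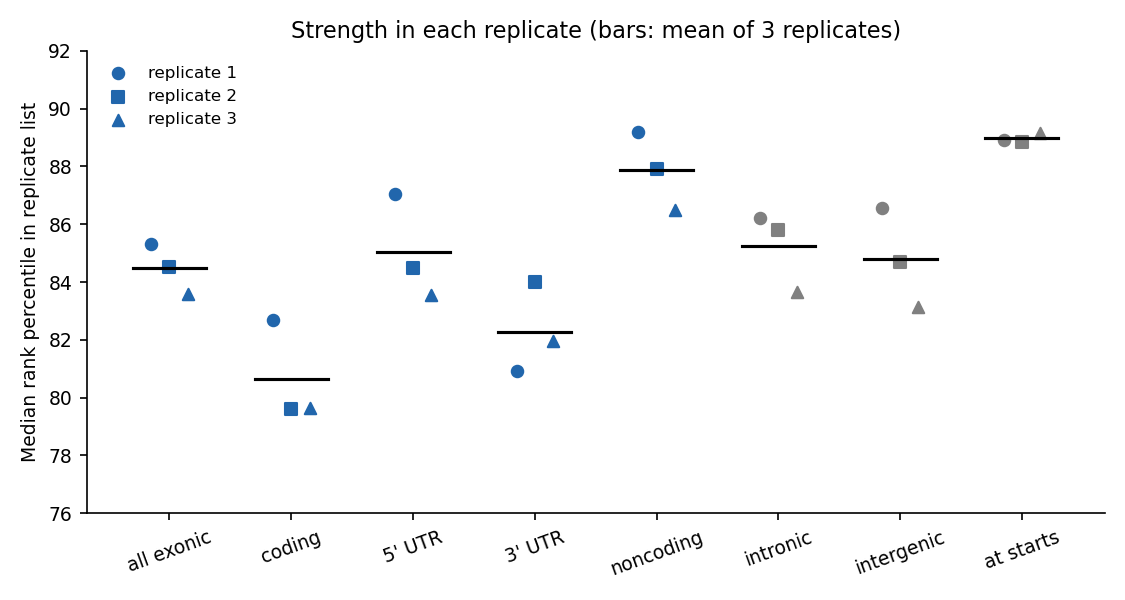
Median rank percentile (y axis, 100 is the strongest entry) of the replicate entries matched to each set of optimal summits, with 1 symbol per replicate and a bar at the mean of 3. The replicate medians of noncoding members lie between 86.5 and 89.2 and those of coding members between 79.6 and 82.7. Single members of these classes overlap widely, with signals in the optimal list of 155 to 4628 (noncoding) and 156 to 1706 (coding).

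Of the 349 members, 193 (55.3%, interval 49.9 to 60.6%) had an entry within 200 bp among the 8131 strongest of all 3 replicates, against 59.7% of all optimal summits. Another 102 were matched in 2 replicates, 52 in 1 and 2 in none. Those 2 were in CG17652 and CG13124. Of all 8131 optimal summits, 2219 were matched in 2 replicates, 1000 in 1 and 55 in none. The share matched was 75.6, 80.8 and 82.8% of members in replicates 1, 2 and 3, against 80.4, 82.7 and 79.3% of intronic and intergenic summits, a difference of −1.06 ± 4.17 points (SD, n = 3, exact p = 0.75). It was lower in replicates 1 and 2 and higher in replicate 3. In the full lists of 30000 entries, 322 members had an entry in all 3 replicates. In each replicate, 96.3, 96.8 and 98.9% of members had one, against 95.6, 96.5 and 99.1% of all optimal summits. Within 100 bp in place of 200 bp, 46.7% were matched in all 3. By class, 64.8% of noncoding, 52.1% of 5′ UTR and 51.6% of coding members were matched in all 3, as were 57 of the 114 3′ UTR members.

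Noncoding exons held the strongest members. The first, in lncRNA:Vinr (FBgn0287633, X:12750807 to 12751688), had a signal of 4628 and ranked 6 among all optimal summits. It ranked 6, 6 and 6 in replicates 1, 2 and 3. Its summit lay 543 bp upstream of the start of lncRNA:CR44619, a noncoding gene with 2 members of its own. Those had signals of 2490 (ranks 50, 37 and 68 in the replicates) and 1085 (ranks 380, 418 and 368), so that 3 of the 9 strongest members lay in this pair of neighbouring noncoding genes on the X chromosome. The other noncoding members of high signal were in lncRNA:CR46035 (3R:17704199 to 17704612, signal 2367, replicate ranks 65, 58 and 60), lncRNA:CR44409 (1096), lncRNA:CR46265 (1018) and lncRNA:CR43626 (952, replicate ranks 648, 330 and 988). The summit in lncRNA:CR44409 lay 6 bp from the 3′ end of its exon and that in lncRNA:CR46265 lay 34 bp from it. Of the noncoding members, 33 (30.6%) lay within 100 bp of a transcript end, against 16.0% of noncoding background entries, and within 500 bp the shares were 53.7% and 49.8%. lncRNA:CR43334 held 6 members, more than any other gene, with signals between 175 and 498. Members in exons annotated on either strand were counted alike, and ChIP-seq does not tell the strand.

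In 5′ UTRs, the strongest member was in ph-p (polyhomeotic proximal, FBgn0004861), which encodes a subunit of Polycomb repressive complex 1. It spanned X:2137630 to 2138167, lay 399 bp downstream of a ph-p start and had a signal of 2495. Its ranks of 38, 46 and 48 placed it among the 50 strongest entries of every replicate. ph-p has a close copy beside it, ph-d, but every 32-base word within 100 bp of the summit occurred once in the genome. The dnc gene, which encodes a cAMP phosphodiesterase active in learning, held a 5′ UTR member with a signal of 1814 and ranks of 136, 147 and 108. Raf, the kinase between Ras and MEK in growth factor signalling, had one of 1230 with ranks of 248, 364 and 394. Pgk, a glycolytic kinase, had one of 956 with ranks of 719, 496 and 387, and CG31729 one of 820 with ranks of 1513, 934 and 443.

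The 5′ UTR members were the closest to starts, with a median distance of 583 bp, against 1448 bp for coding, 1556 bp for 3′ UTR and 690 bp for noncoding members. In 16 of the 96, every transcript of the host had the position in an exon. At the limit of the rule, the nearest members were in sov (251 bp from a start, signal 243) and, both at 253 bp, in Pgk and Pdk1 (signals 956 and 164). The summits just outside it were in CG13359 (250 bp from the start of Rbf, signal 195) and lncRNA:CR44284 (248 bp, signal 287).

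The strongest 3′ UTR member was in by (blistery, FBgn0000244), which encodes the focal adhesion protein tensin. It spanned 3R:9528492 to 9528797, had a signal of 1036 and ranked 422 and 442 in replicates 2 and 3, while replicate 1 had no entry within 200 bp. The nearest entry of replicate 1 lay 212 bp away at rank 21604. It was the 1 member among the 1000 strongest optimal summits that lacked an entry in a replicate, against 11 of those 1000 as a whole. lwr, which encodes the SUMO-conjugating enzyme Ubc9, had 3 members, the strongest with a signal of 948 and ranks of 271, 864 and 667. CG7872 (926; ranks 895, 414 and 602), CG16989 (758; ranks 568, 1613 and 705) and stas (750; ranks 1074, 649 and 967) followed.

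By definition a 3′ UTR lies at the end of a transcript, so the 3′ UTR members lay near transcript ends. Their median distance to an end of a host transcript was 201 bp, and 87 of the 114 (76.3%) lay within 500 bp of one, against 66.3% of 3′ UTR background entries. Within 100 bp the shares were 30.7% and 23.5%. For 61 of them the nearest start belonged to another gene, and 44 of these lay upstream of that start, 26 within 1000 bp of it.

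Coding members were few, and the strongest was in otp (orthopedia, FBgn0015524), a homeodomain transcription factor of the nervous system and hindgut. It lay at 2R:20884400 to 20884783, in an exon of 9 of 9 transcripts and 4657 bp from the nearest start, that of Cib2. Its signal was 1706 and its ranks were 160, 163 and 141, so it was among the 200 strongest entries of each replicate. Pde1c, a calcium-dependent cyclic nucleotide phosphodiesterase, had a coding member with a signal of 1018 and ranks of 442, 491 and 471, also in 9 of 9 transcripts. l(3)mbn followed with 639 (ranks 1325, 1243 and 992), CG10357 with 536 (ranks 2382, 1175 and 1615) and scrib, a scaffold of epithelial polarity, with 441 (ranks 2632, 2734 and 1846). Of the coding members, 14 of 31 (45.2%) lay within 100 bp of an exon edge, against 35.8% of coding background entries.

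Position relative to genes was recorded for all members. The members lay a median of 927 bp from a start (251 to 36556 bp), against 1094 bp in the exonic background, with 179 members between 250 and 1000 bp and 24 beyond 5000 bp. The nearest start was the host gene's own for 225 members and another gene's for 124, of which 88 lay upstream of it. Of 221 protein-coding host genes, 100 (45.2%) also had an optimal summit within 250 bp of a start, against 52.9% of the 1506 protein-coding genes with an intronic summit and 23.4% of all 13945 protein-coding genes. The members fell in 313 genes, 28 of which held more than 1, and 10 lay in exons of more than 1 gene. Another optimal summit lay within 1000 bp of 35.5% of members, against 28.9% of the intronic and intergenic summits. One lay within 250 bp of 60 members (17.2%), against 14.3% of all optimal summits. In replicates 1, 2 and 3, 16, 12 and 10 members shared their matched entry with another member. Entries shared with optimal summits that are not members were not counted. The match was the strongest entry within 200 bp, so the replicate rank of a member can be that of a close neighbour. The X chromosome held 79 members (22.6%), against 17.8% of all optimal summits. Chromosome 4 held none, and only 0.221% of all optimal summits lay there.

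Consensus sequences were searched within 100 bp of each summit on both strands. CTCF (AGGTGGCGC) was in 6 members, or 1.72% (0.633 to 3.70%), against 0.710% of the other summits away from starts, 0.750% of all optimal summits and 0.339% of the exonic background. The 6 were in coding sequence of Pde1c, CG10357 and klar, in noncoding exons of lncRNA:CR43838 and lncRNA:CR42839, and in the 3′ UTR of Hr4. All 6 were matched in all 3 replicates, against 55.3% of all members and 59.7% of all optimal summits. Their signals ran from 235 to 1018, against a median of 236 over all members. In coding sequence it was in 3 of 31 members, against 2 of 522 background entries. GAGAGAG was in 24 members (6.88%), against 3.98% of other summits away from starts, 4.77% of all optimal summits and 3.59% of the exonic background. Of the 24, 12 were in 5′ UTRs, which is 12.5% of that class against 10.8% of 5′ UTR background entries, so the repeat was frequent in this class with or without an optimal summit. The gap was wider in noncoding exons (7 members, 6.48% against 2.19%) and coding sequence (2 members, 6.45% against 1.53%). In 3′ UTRs it was 2.63% against 2.87%. Within 50 bp of the summit, CTCF was in 0.573% and GAGAGAG in 3.44% of members.

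Consensus sequences of fly promoters were compared with start summits. GGTCACACT, part of the site of Motif 1 binding protein, was in 1 member (0.287%), against 0.323% of other summits away from starts, 6.26% of start summits and 2.61% of all optimal summits. TATCGATA, the DNA replication-related element, was in 1 member (0.287%), against 0.538% of other summits away from starts, 7.92% of start summits and 3.37% of all optimal summits. CGATA, a core of BEAF-32 sites and also a stretch of TATCGATA, was in 74 members (21.2%), against 21.1% of other summits away from starts, 40.7% of start summits, 28.6% of all optimal summits and 24.8% of the exonic background. In coding members it was in 2 of 31, against 24.9% of coding background entries. TGCATACTT, part of the Su(Hw) site, was in 1 member (0.287%), in the 3′ UTR of Mob2, against 0.640% of all optimal summits. CACGTG was in 5 members (1.43%), against 2.23% of all optimal summits. TATAAA was in 24.6% of members, against 35.2% of other summits away from starts, 32.5% of all optimal summits and 17.3% of the exonic background. By class, it was in 30.7% of 3′ UTR members against 29.8% of their background, and the noncoding shares were nearly equal. The gap was wider in 5′ UTRs (21.9% against 15.9%) and coding sequence (3 members, 9.68% against 4.41%). Coding sequence, where TATAAA was rarest, made up 8.88% of members but 35.4% of the exonic background, which widens the pooled gap. AGATAA was in 14.3% of members and 14.0% of all optimal summits. A match is a description of the letters and no evidence of a protein bound there.

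Each of 12 lists of genes held at most 2 genes with an exonic member. Of 92 ribosomal protein genes, 1 had an exonic member, a 3′ UTR summit in RpS26 with a signal of 174, although 76 of the 92 had a summit at a start. None of 51 translation factor genes, 32 embryonic patterning genes, 17 genes of Hmr, HP1 and their partners or 15 insulator and promoter factor genes had one. Over all protein-coding genes, 230 of 13945 (1.65%) had a member in an exon, and over all noncoding RNA genes 91 of 3261 (2.79%). Lists of this size hold too few genes to tell a share of 0 from 1.65%. In the lists described next the share was above 1.65%, each from 1 or 2 genes. It went from 4.35% of Polycomb and trithorax group genes to 15.4% of ecdysone response genes.

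Members in the other lists are given by list. Among 23 Polycomb and trithorax group genes, ph-p was the 1 with a member. Among 35 signalling genes, Stat92E, the transcription factor of JAK/STAT signalling, had a 5′ UTR member of 426 with ranks of 3555, 1835 and 1052, and aop, the ETS repressor Yan, had one of 344 with ranks of 5957, 3314 and 2324. Among 13 ecdysone response genes, Kr-h1 had a 5′ UTR member of 456 with ranks of 2941, 1671 and 2046, and the nuclear receptor gene Hr4 a 3′ UTR member of 410 with ranks of 3851, 2513 and 1877. In all 4 of these genes the summit stood weakest in replicate 1. This was not so for the members as a whole. Their median rank percentile was highest in replicate 1, at 85.3 against 84.5 and 83.6 in replicates 2 and 3.

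Neuronal RNA-binding protein genes held 3′ UTR members. elav had one of 349 with ranks of 3582, 3145 and 2980, and fne one of 280 with ranks of 3954, 7992 and 2756, which makes 2 of 19 genes of RNA-binding regulators. Mef2, the muscle transcription factor, had a 5′ UTR member of 503 (ranks 2815, 1587 and 1620), as 1 of 17 muscle genes, and Hsp22, a mitochondrial small heat shock protein, one of 496 (ranks 1694, 2198 and 1660), as 1 of 15 heat shock and chaperone genes. In 15 insulin, TOR and growth genes, members were in the 5′ UTR of Pdk1 (164) and in an exon shared by CG12535 and Myc (163). The Myc position had no entry in replicate 1 and ranks of 6439 and 15593 in replicates 2 and 3.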

How the data were processed

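Per the labels, Hmr-GFP was precipitated from 3 biological replicates of transgenic embryos. The authors deposited peak lists on dm6. Each relaxed list, 1 per replicate and 1 for the pooled reads, holds 30000 entries, and the optimal list of reproducible peaks (irreproducible discovery rate) holds the 8131 strongest pooled entries. The deposited signal value is the peak caller's own and was compared only within a list. No source used here states the aligner, peak caller, threshold or use of a control. In the optimal list 63.6% of peaks had a summit offset of 228 bp, the centre of a fixed window. The same held for 236 of the 349 members. These summits are exact only to the window, and so are the exon classes, edge distances and consensus windows drawn from them. Lists on dm3 were not used.

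Genes and exons came from Ensembl release 115 on Release 6 without transposable elements (18164 genes), and sequence came from the RefSeq Release 6 genome. A position in several exon classes was counted in the order coding, 5′ UTR, 3′ UTR, noncoding. Starts were all transcript starts. Background entries were pooled entries over 500 bp from every optimal summit. Each summit was matched to the strongest entry within 200 bp in the other list. Consensus sequences were searched within 100 bp. Intervals are exact Clopper-Pearson at 95% and cover counting error only. Replicates were compared with exact two-sided sign-flip permutation tests. The annotation scripts were tested on simulated data.

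The members, gene lists and consensus sequences were chosen with earlier results of these data known. The text names hosts of the 15 strongest members, the 5 strongest per exon class, list genes with the strongest members and the summits nearest the 250 bp limit. Genes with consensus matches were chosen after their values were seen. Alternatives changed the start distance, the class order, the transcript rule, the signal, the match distance, the background and the replicates. Python 3.11.15, numpy 2.4.6, pandas 2.3.3, scipy 1.17.1 and matplotlib 3.10.9 were used.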

Additional observations from a re-analysis of the deposited data

How the results depend on the processing

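Of 65 alternative values, 41 counted as the same, 22 moved and 2 reversed. For the within-replicate shares and the rank differences, the same meant only that the sign was kept. One such value, the difference in other exons, went from 0.291 to 0.108 points without replicate 1. For the other results, the same meant staying within a set margin. The members numbered 575 with only gene 5′ ends as starts, 170 beyond 1000 bp from every start and 143 above the median signal. The exonic share of optimal summits minus background, −1.45 points, was −2.70 against lower-ranked background and −0.469 beyond 1000 bp. The coding difference of −2.36 points was −3.76 and −1.56 there. The difference in other exons, 0.914 points, was 0.454 above the median signal. Within replicates, the difference in other exons reversed to −0.0528 points with the 4000 strongest entries. The rank difference from intergenic summits reversed to 0.138 without replicate 1, in a range of −0.701 to 0.138 when each replicate was left out. The share of members matched in all replicates, 55.3%, was 46.7% within 100 bp, 61.0% within 400 bp, 92.3% in the full lists and 61.9 to 69.9% with a replicate left out, when fewer matches were needed. The cause of the other shifts was not tested. The remaining moved values were shares of consensus sequences in a narrower window. The above-median count of members, the merging of close members, the strict transcript rule and the leave-one-out of the within-replicate shares were chosen after seeing the data. No paired analysis was possible because there was 1 group, and the replicate tests compare sets of entries within each library. Unknown depth and a smallest exact p of 0.25 limit every replicate comparison.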

Other observations

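Among the 1000 strongest optimal summits, 11 lacked an entry within 200 bp in at least 1 replicate list, 8 of them in replicate 1, 3 in replicate 2 and 1 in replicate 3. All 32 exonic members of that strength had entries in replicates 2 and 3, and the by summit was the 1 without an entry in replicate 1. Over all members, 13 had no entry in replicate 1, 11 none in replicate 2 and 4 none in replicate 3. Thus 96.3, 96.8 and 98.9% of members had an entry, close to the 95.6, 96.5 and 99.1% of all optimal summits.

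Exonic members of the same gene spanned a range of signals. The 3 members of lncRNA:CR44603 had signals between 444 and 680, those of eas, an ethanolamine kinase gene, between 238 and 551, and those of lncRNA:CR43126 between 164 and 264. ush, which encodes a cofactor of GATA factors, held 2 members of 449 and 213, and spen, a regulator of transcription, 2 of 375 and 276. The polarity gene baz held 2 of 217 and 201.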
